A study of Mus musculus with 8 samples.

Results

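The 10 genes described here serve fat storage and heat production in adipocytes: the fatty acid carrier Fabp4, the hormone gene Adipoq, the lipase Lpl, the nuclear receptor Pparg, the lipid droplet proteins Plin1, Cidea and Plin4, the triglyceride enzyme Dgat2, and the mitochondrial carriers Ucp1 and Ucp3. They were listed by name as adipocyte genes and chosen by their signal in the hip-needled group of the study, with the values of all 8 arrays known, and they are 10 of 19938 genes that the platform annotation ties to a probe set of their own. Each is read by 1 probe set, so no choice among probe sets was needed. Male C57BL/6 mice, 6 weeks old per the labels, gave cervical spinal cord, whose RNA was hybridised to whole-transcript arrays, 2 per group. Control mice were injected with saline daily for 4 weeks, and all other mice received MPTP, a toxin of dopaminergic neurons used to model parkinsonism, at 20 mg/kg every 24 h over the same time. The MPTP group had no needling. The acupoint group had MPTP and was needled on both sides at GB34 and LR3, on the leg and foot, to 3 mm and 1 mm, in 14 sessions 48 h apart that started 2 h after MPTP. The hip group had MPTP and the same sessions with needles set 3 mm deep in both hips, away from the acupoints, and is the group the labels call nonacupoints. Each array carries a mouse number in its label, with no word on pooling of RNA, so that errors and p-values here speak of these samples alone and could be technical in part.

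White fat cells store triglyceride in a large lipid droplet and release it as fatty acids, while brown fat cells hold many small droplets and burn fatty acids to make heat. Pparg, with C/EBP factors, turns on the genes of both kinds of cell, Lpl and Fabp4 bring fatty acids in, Dgat2 makes triglyceride, perilipins and Cidea coat and merge droplets, and Ucp1 lets protons leak through the inner mitochondrial membrane of brown fat. The spinal cord itself holds few fat cells, but fat lies in the epidural space around it and between the muscles of the neck. Several members are not limited to fat: Fabp4 is also made by capillary endothelium and macrophages, Lpl by muscle and microglia, and Ucp3 and Plin4 by skeletal muscle.

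Signals are log2 values after RMA, the authors' normalization, so a difference of 1 is 2-fold. The values of a gene can be compared across arrays, and the level of 1 gene cannot be set against that of another. Across the genes tested, the 2 arrays of a group correlated at 0.985 to 0.996. Spinal cord markers, among them Snap25, Chat, Mbp and Gfap, had a mean of 9.82 to 10.27 on the 8 arrays, and of 10.16 on hip replicate 2, the array that stood apart from the other 7 arrays for the members. The number of arrays limits the precision of every value below.

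The sequences before the start sites of 3 members are shown because these genes were high together on hip replicate 2. They are also the most restricted to fat cells among the members read in the RefSeq promoter table. Windows for 6 of the 10 members were read there (build GRCm38.p6), in a search that left out 1 chromosome. Those of Fabp4, Lpl, Cidea and Dgat2 are not shown, and whether each of these has a window there is not stated here. Each runs 5′ to 3′ on the gene's strand over the 250 bases before the start site. Capitals mark matches on either strand to AGGTCA, the core that nuclear receptors such as Pparg bind, or to TTGCNNAA, a core of C/EBP sites. The windows are chr16:23146286-23146535 on the plus strand for Adipoq, chr7:79732777-79733026 on the minus strand for Plin1, and chr8:83290098-83290347 on the plus strand for Ucp1.
Adipoq: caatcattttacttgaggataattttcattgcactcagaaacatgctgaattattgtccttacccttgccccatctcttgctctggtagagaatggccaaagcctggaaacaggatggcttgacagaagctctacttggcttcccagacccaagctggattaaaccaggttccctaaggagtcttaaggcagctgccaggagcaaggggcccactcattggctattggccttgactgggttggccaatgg
Plin1: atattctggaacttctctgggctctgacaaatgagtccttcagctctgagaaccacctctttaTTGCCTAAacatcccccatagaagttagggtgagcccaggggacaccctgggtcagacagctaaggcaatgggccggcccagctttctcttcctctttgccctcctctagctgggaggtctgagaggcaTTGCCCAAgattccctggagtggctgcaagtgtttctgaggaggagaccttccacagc
Ucp1: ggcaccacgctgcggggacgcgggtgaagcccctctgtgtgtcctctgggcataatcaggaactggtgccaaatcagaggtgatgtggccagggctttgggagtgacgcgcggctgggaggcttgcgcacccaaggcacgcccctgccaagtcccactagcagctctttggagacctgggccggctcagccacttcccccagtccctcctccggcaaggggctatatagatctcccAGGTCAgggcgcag
The Ucp1 window held AGGTCA with its first base 14 bases before the start site. Plin1 held TTGCNNAA at 187 and 58 bases before it, and Adipoq held neither. Of the members read but not printed, Ucp3 had AGGTCA at 149 and 44 bases before its start site, and Plin4 held neither. Pparg, with several start sites, had AGGTCA 28 bases before 1 of them and 9 bases before another. A further Pparg window held TTGCNNAA at 215 and 16 bases. Over the windows of this length of all 27025 genes in the table, 15.8% of genes had a window with AGGTCA and 10.8% one with TTGCNNAA. The direct repeat of AGGTCA with 1 base between, to which Pparg binds with its partner Rxra, was found in 0.0407% of genes and in none of the 6 members read. It holds AGGTCA, so those matches overlap. A match is a description of letters and not of binding.

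All 10 members had their highest value on hip replicate 2, where 7.53% of the genes tested had theirs. Fabp4, Ucp1 and Adipoq stood furthest out, Lpl, Cidea and Plin1 followed, and Plin4, Dgat2, Pparg and Ucp3 lay less than 1 log2 unit above the median of the other 7 arrays. These values led to the choice of the genes and are given as a description, without a test. In whole tissue, more cells of a type and more RNA per cell cannot be told apart.

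Among the uptake and hormone genes, Fabp4 read 4.54 and 4.98 on control replicates 1 and 2, 4.97 and 4.25 in MPTP, 4.91 and 4.39 in acupoint, and 4.30 and 9.05 in hip replicates 1 and 2. Hip replicate 2 was 22.7-fold above the median of the other arrays, which spanned 0.73, and the groups other than hip overlapped. Adipoq, which encodes adiponectin, the hormone that fat cells secrete in the greatest amount, was at 3.70 and 3.53 in control, 3.82 and 3.78 in MPTP, 4.15 and 3.37 in acupoint, and 3.78 and 7.39 in hip replicates 1 and 2. On 7 arrays Adipoq thus lay below 4.30, the 30th percentile of all probe sets, and on hip replicate 2 it was 12.2-fold above their median. Lpl, which frees fatty acids from circulating lipoproteins, was at 5.61 and 6.15 in control, 5.79 and 5.69 in MPTP, 6.02 and 5.34 in acupoint, and 5.95 and 8.18 in hip replicates 1 and 2, or 5.24-fold above the median of the others on the last. Outside hip replicate 2 the spread of Lpl within the control pair and within the acupoint pair covered both MPTP values.

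**Figure D1:**
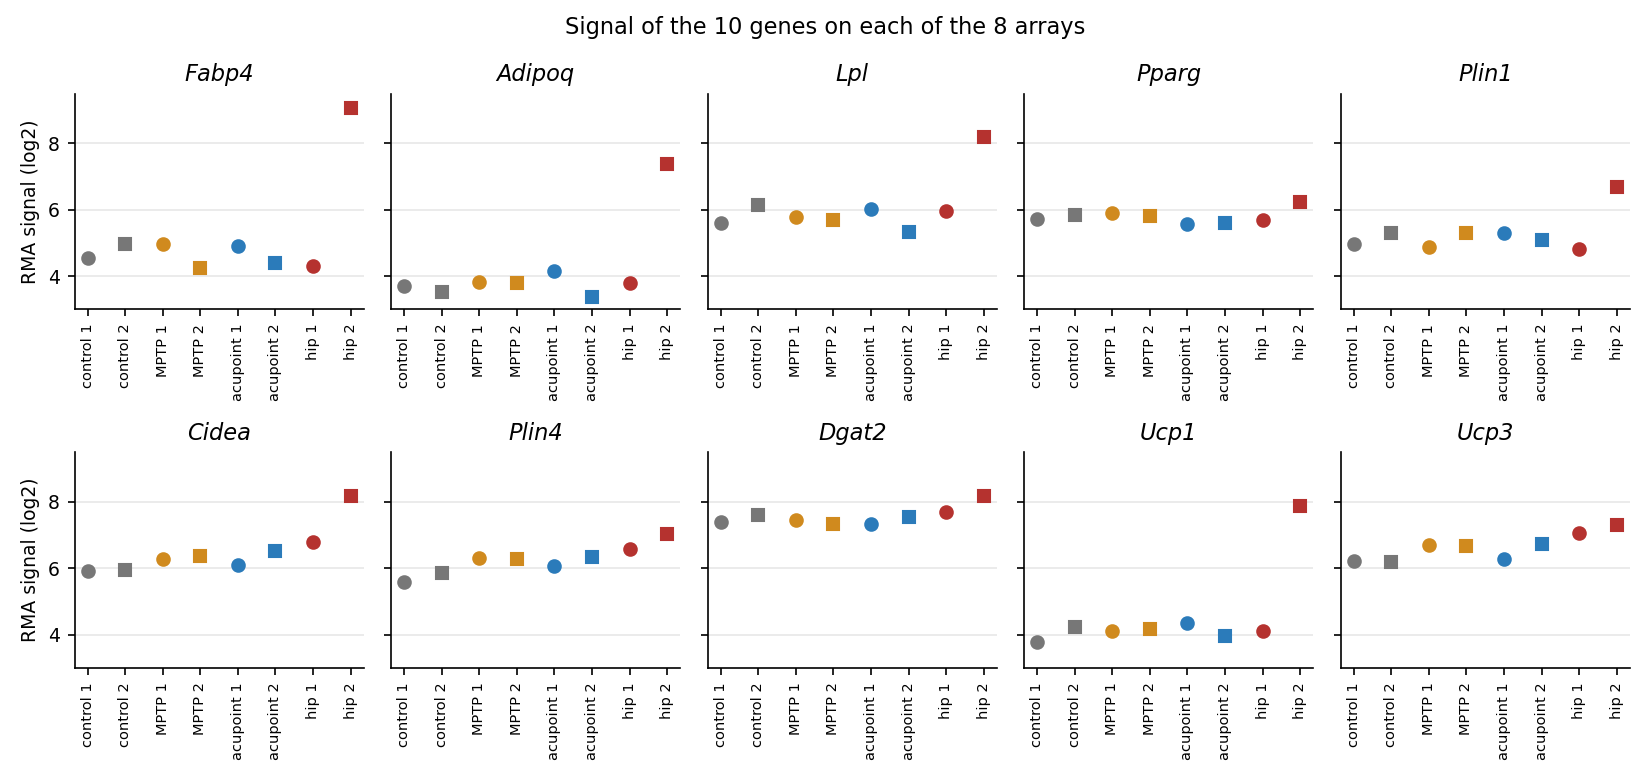
RMA signal on the log2 scale of the 10 genes on each array, with circles for replicate 1 and squares for replicate 2 of the control (grey), MPTP (orange), acupoint (blue) and hip-needled (red) groups. Fabp4 reached 9.05, Ucp1 7.88 and Adipoq 7.39 on hip replicate 2, while the other 7 arrays stayed at or below 4.98, 4.35 and 4.15.

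Of the uncoupling proteins, Ucp1, the heat-producing carrier of brown fat, read 3.77 and 4.23 in control, 4.12 and 4.16 in MPTP, 4.35 and 3.95 in acupoint, and 4.12 and 7.88 in hip replicates 1 and 2. The gap from hip replicate 2 to the next array, 3.52, was 6.08 times the whole span of the other 7, the largest such ratio among the 10 genes. Ucp3, a related carrier of muscle and brown fat mitochondria, was at 6.23 and 6.19 in control, 6.69 and 6.66 in MPTP, 6.27 and 6.72 in acupoint, and 7.07 and 7.29 in hip replicates 1 and 2. Its gap was 0.22, or 0.258 times the span of the others, and here both hip arrays lay above all others.

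The droplet proteins divided in the same way. Plin1, the coat protein that gates lipolysis on large droplets, was at 4.97 and 5.30 in control, 4.88 and 5.31 in MPTP, 5.31 and 5.08 in acupoint, and 4.82 and 6.68 in hip replicates 1 and 2. Hip replicate 1 held the lowest of the 8 values of Plin1 and hip replicate 2 the highest. Cidea, which moves lipid between droplets and is abundant in brown fat, read 5.91 and 5.93 in control, 6.27 and 6.38 in MPTP, 6.11 and 6.52 in acupoint, and 6.78 and 8.18 in hip replicates 1 and 2. Plin4, a coat protein of small new droplets, read 5.57 and 5.84 in control, 6.30 and 6.27 in MPTP, 6.06 and 6.34 in acupoint, and 6.59 and 7.04 in hip replicates 1 and 2. For Cidea and Plin4, as for Ucp3, hip replicate 1 came next after hip replicate 2, and both control arrays were below every other array.

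Dgat2, which adds the last fatty acid of a triglyceride, was at 7.39 and 7.61 in control, 7.46 and 7.34 in MPTP, 7.33 and 7.53 in acupoint, and 7.69 and 8.17 in hip replicates 1 and 2. The regulator Pparg read 5.72 and 5.83 in control, 5.90 and 5.81 in MPTP, 5.57 and 5.61 in acupoint, and 5.69 and 6.22 in hip replicates 1 and 2. It had the narrowest span over the other 7 arrays, 0.33, and hip replicate 2 was 0.33 above the highest of them. Ordered by the fold of hip replicate 2 over the median of the others, the genes ran Fabp4 (22.7), Ucp1 (13.5), Adipoq (12.2), Lpl (5.24), Cidea (3.76), Plin1 (3.03), Plin4 (1.70), Dgat2 (1.63), Ucp3 (1.55) and Pparg (1.42). With 1 array at the high level, no error can be put on these folds, and neighbours in this order were not tested against each other. The reference values of Adipoq, 3.37 to 4.15, lie under the signal filter and those of Ucp1, 3.77 to 4.35, at or about it. Those of Fabp4, 4.25 to 4.98, run from just under the filter to somewhat above it. RMA compresses differences among such dim values, so the folds and places of these genes are approximate.

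Set against the mean of the 2 MPTP arrays, which had the same injections without needles, the 2 hip arrays gave different pictures. On hip replicate 1 none of the 9 members above the signal filter was at least 2-fold higher, where 3 of 16026 genes were (0.0187%, and 0.0201% with the filter left off), and the members ran from -0.31 for Fabp4 to 0.45 for Cidea with a median of 0.09. On hip replicate 2, with no filter, 6 of 10 were at least 2-fold higher (Fabp4, Adipoq, Ucp1, Lpl, Cidea and Plin1), where 33 of 19938 genes were (0.166%). Among genes above the filter it was 5 of 9, where 26 of 16026 genes were (0.162%), but Ucp1 is in both of these member counts and passed the filter only through hip replicate 2. The members' median was 1.72 on hip replicate 2, and that of all genes was -0.02. Fabp4, at 4.44, had the largest difference of all genes tested on this array, Ucp1, at 3.73, the fourth, Lpl, at 2.44, the ninth, and Cidea, at 1.86, and Plin1, at 1.58, were 13th and 16th. The same members were at least 2-fold apart between hip replicates 2 and 1 (5 of 9, against 0.212% of genes, or 6 of 10 against 0.231% with no filter), from 1.40 for Cidea to 4.75 for Fabp4. The mean of the hip group for these genes is therefore the mean of a high and a low array: its SD (n = 2) was 3.36 for Fabp4, 2.66 for Ucp1 and 2.56 for Adipoq, against 0.03 to 0.55 in the other groups.

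**Figure D2:**
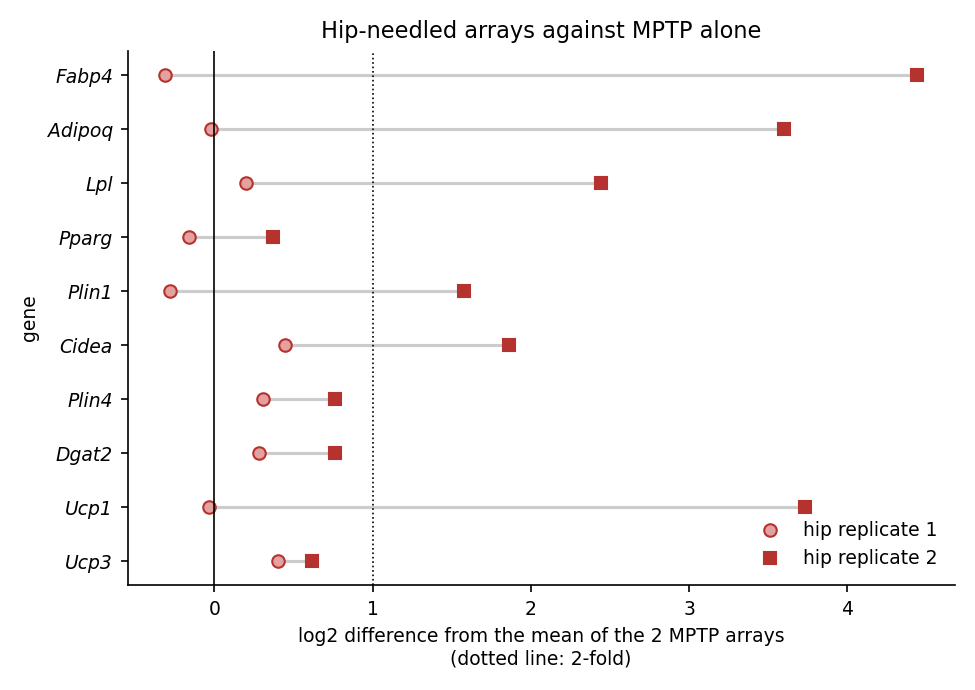
Log2 difference of hip replicate 1 (pale circles) and hip replicate 2 (dark squares) from the mean of the 2 MPTP arrays for each of the 10 genes, with a dotted line at 2-fold. On replicate 2, 6 of 10 genes lay past the line, up to 4.44 for Fabp4, and on replicate 1 none did.

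Other genes of fat cells, from lists of genes that are not members, were high on the same array. Of 15 white adipocyte genes above the filter, 12 had their highest value on hip replicate 2 and 6 were at least 2-fold above the MPTP mean there: the carbonic anhydrase Car3 (15.8-fold), the glyceroneogenic enzyme Pck1 (7.59-fold), the droplet protein Cidec (4.14-fold), the glycerol channel Aqp7 (2.83-fold), the acute phase protein Orm1 (2.83-fold) and the lipogenic regulator Thrsp (2.18-fold). Leptin, Lep, which fat cells secrete, was not among them. It was under the filter and read 3.92 on hip replicate 2, inside the 3.30 to 4.15 of the other arrays. Resistin, Retn, was at 5.66 against 4.59 to 5.32. Of 12 brown fat genes above the filter, 7 had their highest value on hip replicate 2. There 1 of the 12, the cytochrome oxidase subunit Cox8b, was at least 2-fold above the MPTP mean (5.25-fold). Cox8b is also a muscle gene, and it read 7.79 on control replicate 2 and 8.12 on hip replicate 2, with the other 6 arrays at 5.46 to 6.33. Among brown fat regulators, Prdm16 was at 6.14 against 5.85 to 6.09 and Ppargc1a at 8.64, inside its 8.49 to 8.70 on the other arrays.

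Few droplet and synthesis genes were 2-fold higher on hip replicate 2. The mean of each list was above its range on the other 7 arrays: 7.28 against 6.82 to 6.95 for droplet and lipolysis genes, and 8.84 against 8.34 to 8.55 for synthesis genes. These means include Cd36 and Agpat2, given below. The median log2 difference from the MPTP mean was smaller, 0.04 for the droplet genes and 0.15 for the synthesis genes. In the list of other droplet and lipolysis genes, 1 of 16 was 2-fold higher, the fatty acid transporter Cd36 (15.2-fold over the MPTP mean). It read 8.15 there, 6.27 on control replicate 2 and 3.99 to 4.70 on the other 6 arrays. Of 15 triglyceride and fatty acid synthesis genes, 1 was 2-fold higher, the acyltransferase Agpat2 (5.5-fold over the MPTP mean). It read 8.23 there, against 5.52 to 5.89 on the others. Of these 15 genes, 10 had their highest value there, as had 4 of the 16 droplet genes. None of 10 transcription partners of fat cells, such as Rxra, Cebpb and Ebf2, was 2-fold higher, and their median log2 difference was 0.02. Relatives of the members did not share the pattern: Fabp3 was at 8.28 (7.91 to 8.69 on the other arrays), Fabp5 at 8.74 (8.71 to 9.04), and Fabp7, the carrier of radial glia and astrocytes, at 7.98 (7.33 to 8.29). In all, 14 of the 26 genes at least 2-fold above the MPTP mean on hip replicate 2 were members or on these lists. Of the 14, 5 were members, chosen by their signal in the hip group, and 9 were list genes. The lists were chosen with earlier results of these data known, so this overlap is a description and not a test.

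**Figure D3:**
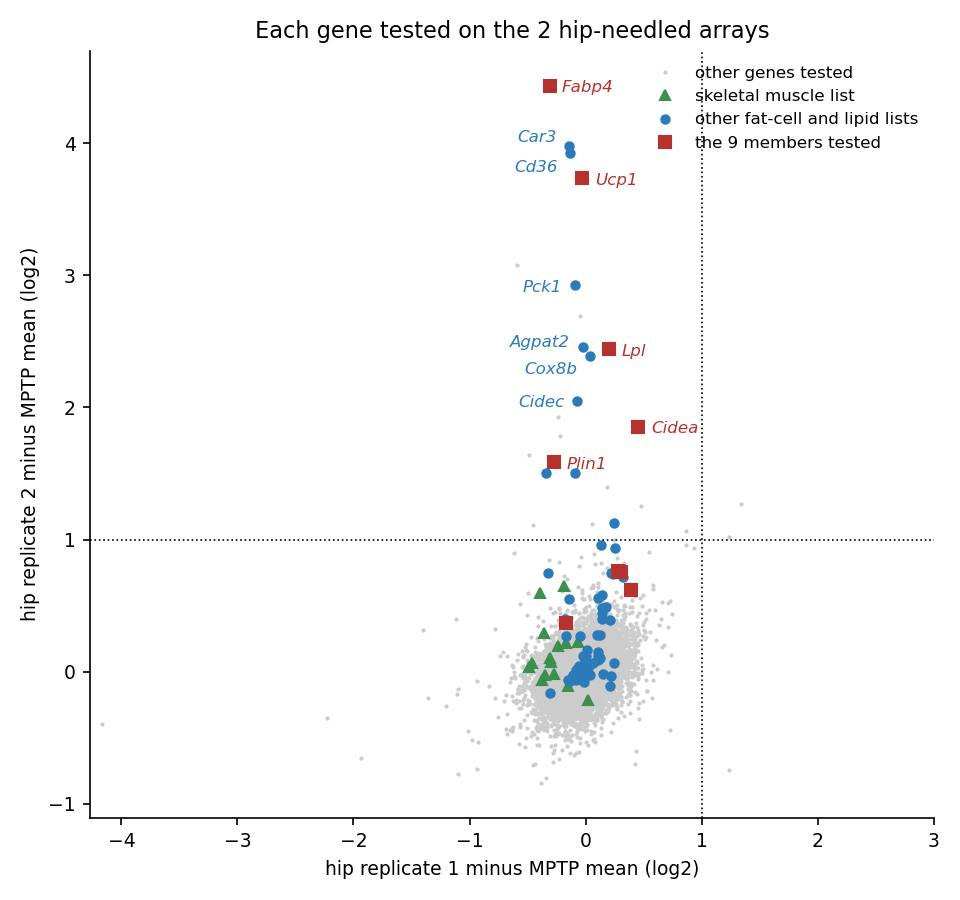
Each of the 16026 genes tested by its log2 difference from the MPTP mean on hip replicate 1 (horizontal) and hip replicate 2 (vertical), with dotted lines at 2-fold. The 9 members tested (red squares) and other fat-cell and lipid genes (blue circles) reach 4.44 upward with no member beyond 0.45 on the horizontal axis, and the 15 skeletal muscle genes (green triangles) stay within 1 on both.

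Genes were also ranked by how closely they followed the mean profile of Adipoq, Cidea, Plin1 and Ucp1 over the 8 arrays, among 656 non-members whose range was at least 1. Pearson's r was at least 0.95 for 7 genes and at least 0.9 for 11. The 12 closest were the lipid ester hydrolase Ces1d (0.99), Pck1 (0.99), Agpat2 (0.99), the B cell chemokine Cxcl13 (0.98), the cytochrome P450 Cyp2e1 (0.97), Car3 (0.97), haptoglobin, Hp (0.96), Orm1 (0.93), the glycogen phosphorylase Pygl (0.92), Cidec (0.91), Thrsp (0.91) and the thiolase Acaa2 (0.89). These r values describe 1 high array, which all these genes share: without hip replicate 2 they ran from -0.006 for Cidec to 0.598 for Acaa2. Cyp2e1 read 8.29 on hip replicate 2 and between 4.50 and 5.25 elsewhere, and Ces1d 6.76 and between 3.88 and 4.14. Ces1d thus lay under the signal filter of 4.30 on the other arrays and passed it only through hip replicate 2. It is also among the 26 genes at least 2-fold above the MPTP mean there. Of the members, Fabp4 followed the profile at 0.97 and Lpl at 0.97, Dgat2 at 0.87, Pparg at 0.82, Plin4 at 0.75 and Ucp3 at 0.68.

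Markers of other tissues were read on the same arrays. Skeletal muscle genes, 15 in all, had a mean of 5.59 on hip replicate 2, 5.18 to 5.49 on hip replicate 1, the MPTP arrays and acupoint replicate 2, 6.70 on acupoint replicate 1, and 7.21 and 8.72 on the control arrays, and 0 of 15 were 2-fold above the MPTP mean on hip replicate 2. Of 12 endothelial genes, which matter for Fabp4, 0 had their highest value there, and their mean of 7.84 lay inside the 7.63 to 8.09 of the others. Microglia and macrophage genes, which matter for Lpl and Fabp4, had a mean of 7.64 there and 7.10 to 7.73 elsewhere. Fibroblast and meningeal genes were at 7.61 against 6.77 to 8.65, and peripheral nerve genes at 7.29 against 6.76 to 8.75, with the highest means on control replicate 1 and acupoint replicate 1. On those 2 arrays Adipoq read 3.70 and 4.15 and Ucp1 3.77 and 4.35. Blood genes were at 5.92 against 5.11 to 6.89. Glucocorticoid-responsive genes, a list that marks no tissue, had a mean of 9.09 there, above the 8.48 to 8.92 of the others, with 3 of 9 genes highest there, and the part of this in the members' values was not tested. None of the 26 genes at least 2-fold above the MPTP mean on hip replicate 2 was on a list of another tissue or on this one.

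**Figure D4:**
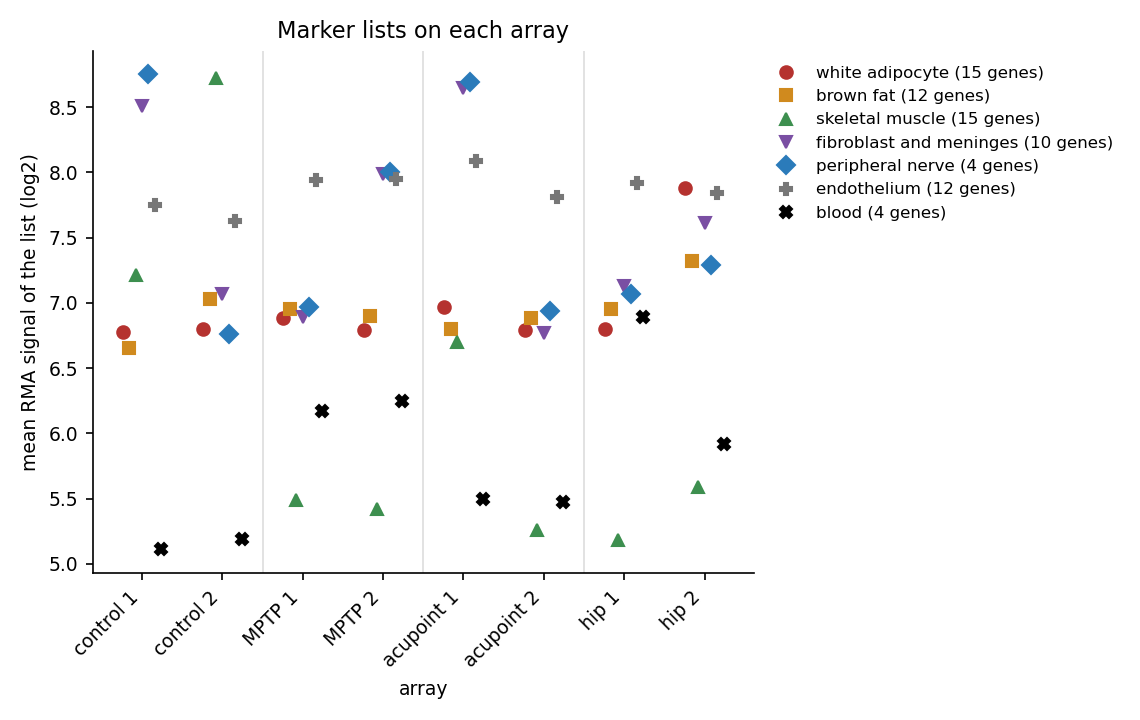
Mean RMA signal (log2) of the genes of each marker list on each array, with points set slightly apart from side to side. The white adipocyte list stood at 7.88 on hip replicate 2 and at 6.78 to 6.97 on the other arrays, while skeletal muscle was highest on control replicate 2, at 8.72, and at 5.59 on hip replicate 2.

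The comparison of MPTP with saline control did not use the hip arrays to form its difference and was tested with limma over all genes. In it 1 of the 9 members tested rose, Plin4, against 13.7% of all genes that rose, 3.1% that fell and 16.8% that were called in either direction, so the members' share was close to the background. Plin4 was 1.49-fold higher after MPTP (log2 0.58, SE 0.17, limma adjusted p = 0.0491). It lost the call when either control array or either MPTP array was left out, with differences of 0.44 to 0.72 and limma adjusted p-values of 0.0886 to 0.226, and over all alternatives its adjusted p ran from 0.0151 to 0.226. Ucp3 stood at 0.46 (SE 0.15, limma adjusted p = 0.0705) and Cidea at 0.41 (SE 0.35, limma adjusted p = 0.483), and neither passed. Ucp3 passed after a further quantile normalization (limma adjusted p = 0.0478), where 2679 of 16026 genes were called. It also passed with each array centred on its median (limma adjusted p = 0.0248, 4246 genes called) and with only the 2 groups compared (limma adjusted p = 0.0189, 3698 genes called). After cyclic loess it did not pass (limma adjusted p = 0.0935). With single arrays left out its difference ran from 0.44 to 0.48. Among those fits it passed only where an acupoint array was left out, which keeps 1 acupoint array in the shared spread. Cidea passed with only the 2 groups compared (limma adjusted p = 0.0389) and under no other alternative.

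For Plin4, Ucp3 and Cidea the 5 arrays from MPTP-treated mice other than hip replicate 2 all lay above both control arrays. This held for 3 of 10 members and for 27.8% of all genes tested, so the members' share was near the background. Acupoint replicate 1 lay nearest to the controls for all 3, at 6.06, 6.27 and 6.11. The glucocorticoid-responsive gene Fkbp5 had a like order, with 7.20 and 7.10 in control, 8.02 and 7.96 in MPTP, 7.57 and 8.02 in acupoint, and 8.35 and 8.66 in hip replicates 1 and 2, and 4 of the 9 genes of its list rose after MPTP, where 13.7% of all genes did. Mt2 of the same list, which also rose, had this order too, with 11.72 and 11.79 in control and 12.19 on both MPTP arrays. It read 11.81 and 12.23 in acupoint, and 12.43 and 12.41 in hip replicates 1 and 2. Klf9, which rose as well, was lowest in control and highest on hip replicate 2. Sgk1, which also rose, differed: it read 8.78 and 8.65 in MPTP and 8.09 and 8.27 in hip replicates 1 and 2. Tsc22d3, Mt1, Pdk4, Per1 (-0.07, SE 0.12) and Zbtb16 (-0.06, SE 0.23) did not pass for MPTP minus control. Muscle markers ran the other way, with 12 of 15 lower after MPTP, and Ucp3 and Plin4, which muscle also makes, were lowest on the 2 control arrays, where the muscle mean was highest. The part of either list in the differences of these members was not tested.

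The other 6 members tested had MPTP differences from -0.15 for Fabp4 to 0.14 for Ucp1, and limma adjusted p-values of 0.743 to 0.969. All 4 groups share 1 spread in this fit, so the gap between the hip arrays widens the errors: the SE was 1.13 for Fabp4, 0.89 for Ucp1, 0.57 for Lpl and 0.47 for Plin1. Without hip replicate 2 the SEs were 0.28, 0.21, 0.25 and 0.20, and with the same differences the adjusted p-values of these 4 genes were 0.719 to 0.927 in limma. In that fit Cidea had an SE of 0.16 (limma adjusted p = 0.131) and Plin4 kept its call (limma adjusted p = 0.045), where 12.1% of genes were called. Adipoq was under the signal filter. With no filter its difference was 0.18 (SE 0.85, limma adjusted p = 0.925). The mean of Ucp1 over the 7 arrays other than hip replicate 2 was 4.10, also under the filter.

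**Figure D5:**
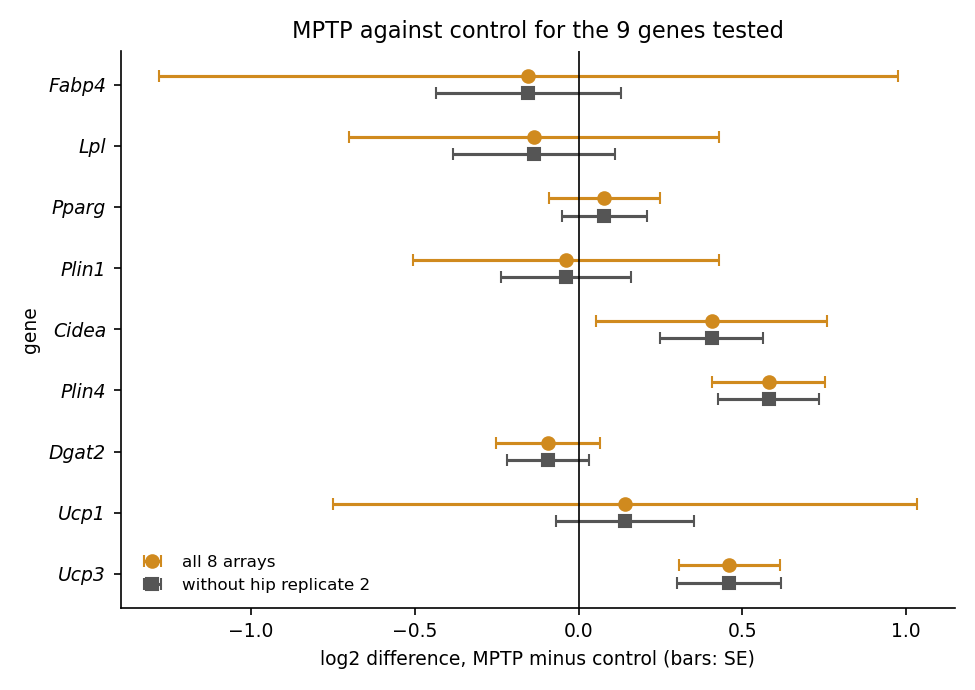
Log2 difference between MPTP and control with its SE for the 9 members tested, fitted with all 8 arrays (orange circles) or without hip replicate 2 (grey squares). The differences are the same, and the SE of Fabp4 goes from 1.13 to 0.28 and that of Ucp1 from 0.89 to 0.21.

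Other lipid genes are counted here beside the 13.7% of all genes tested that rose after MPTP and the 3.1% that fell. The shares that rose in the white adipocyte and synthesis lists were near that background. Of 16 droplet and lipolysis genes 6 rose and 0 fell, with a list median of 0.10 against 0.06 for all genes tested: the droplet coats Plin3 (0.73, SE 0.13) and Plin2 (0.47, SE 0.13), the monoglyceride lipase Mgll (0.47, SE 0.11), the droplet-forming protein Fitm2 (0.45, SE 0.10), the lipase maturation factor Lmf1 (0.36, SE 0.10) and the lipase coactivator Abhd5 (0.28, SE 0.09), with limma adjusted p-values of 0.00693 to 0.0491. The count was 3 after a further quantile normalization or cyclic loess, where 2679 and 2090 of all genes were called. It was also 3 without the 2 hip arrays, where 1938 were. With control replicate 2 or either MPTP array left out, calls fell in this list and among all genes alike, so those fits say little about the list. Of 15 white adipocyte genes 2 rose, the glycerol phosphate dehydrogenase Gpd1 (0.87, SE 0.11) and the activin receptor Acvr1c (0.64, SE 0.14). Of 12 brown fat genes 3 rose, the deiodinase Dio2 (1.06, SE 0.19), which astrocytes also make, Acot11 (0.69, SE 0.13) and Eva1a (0.66, SE 0.10). Calls in these 2 lists fell without MPTP replicate 1, and in the brown fat list without MPTP replicate 2, as did calls among all genes. Of 15 synthesis genes 2 rose, Gpam (0.26, SE 0.08) and Scd2 (0.23, SE 0.06). None did after a further quantile normalization or cyclic loess, with no intensity trend or without the 2 hip arrays. The synthesis count also fell with any single control, MPTP or hip array left out, as calls among all genes did. None of the 10 transcription partners passed. Gpd1 read 8.99 and 9.13 in control and between 9.70 and 10.37 elsewhere, and Plin3 8.65 and 8.33 against 9.11 to 9.44, so for both genes the control arrays did not overlap with the others. For 27.8% of all genes tested, the 5 arrays from MPTP-treated mice other than hip replicate 2 lay above both control arrays. Hip replicate 2 held the highest value of Gpd1, 10.37, with 10.06 on hip replicate 1. Plin3 was at 9.19 on hip replicate 2 and 9.44 on hip replicate 1.

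Needling at the acupoints was set against MPTP alone to ask whether it moved these genes in treated mice. None of the 9 members passed, and nor did any gene in limma (0.0% called, 201 genes at an unadjusted p under 0.05, and 0 members among them). Pparg had the largest difference, -0.27 (SE 0.17, limma adjusted p = 1), and Ucp3 was at -0.18 (SE 0.15). The other 7 lay between -0.09 for Plin4 and 0.10 for Plin1. The values of the 2 groups did not overlap for Pparg, at 5.57 and 5.61 against 5.90 and 5.81. The share of all genes with such a separation was not counted, so no effect on Pparg is read from it. Cidea differed by -0.01, with acupoint replicates 1 and 2 on either side of both MPTP arrays. Acupoint replicate 1 also carried more muscle, nerve and fibroblast signal than the MPTP arrays, and what this did to the members was not tested.

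Against saline control, the acupoint arrays gave 0 of 9 members called, where 11.7% of genes were (9.55% higher and 2.17% lower). Plin4 was at 0.49 (SE 0.17, limma adjusted p = 0.0997), Cidea at 0.40 (SE 0.35, limma adjusted p = 0.526) and Ucp3 at 0.28 (SE 0.15, limma adjusted p = 0.282). With each array centred on its median Plin4 passed (limma adjusted p = 0.0374), where 2872 genes were called. Without acupoint replicate 1, Plin4 was at 0.63 and Ucp3 at 0.51, in a fit with 1 acupoint array. This comparison shares its control arrays with that of MPTP. The same lists had 4 of 16 droplet and lipolysis genes higher (Plin3, Plin2, Mgll and Lmf1), 2 of 15 white adipocyte genes (Gpd1 and Acvr1c), 2 of 12 brown fat genes (Eva1a and Acot11) and 2 of 15 synthesis genes (Gpam and Scd2), and 0 lower. After cyclic loess the droplet count was 1, the white adipocyte count 1 and the synthesis count 0. A further quantile normalization also gave 0 for the synthesis list. The count of each of these lists fell in some fits with a single array left out, where calls among all genes fell as well.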

How the data were processed

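For 35557 probe sets on 8 arrays, the authors deposited log2 signals made with Affymetrix Expression Console and RMA per the submitters' processing notes; versions are not given in the sources used here, and the log base was taken from how far the values extend. RMA equalises probe signals across arrays and compresses the differences of dim probe sets.

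The platform annotation paired probe sets with genes and gave 1 symbol for 21789, several for 1621 and none for 12147. Probe sets with 1 symbol and a mean above the 30th percentile, 4.30, were kept, the brightest per gene, which left 16026 genes. The Entrez identifiers of all 10 members were found in RefSeq (GRCm38.p6) with the same symbol. limma 3.58.1 in R 4.3.3 estimated 4 group means over the 8 arrays together (eBayes with an intensity trend, 4 residual degrees of freedom, two-sided). P-values were adjusted by Benjamini-Hochberg over all genes, contrast by contrast, and genes with an adjusted p under 0.05 were called. Single hip arrays were described without a test, at a threshold of 1 on the log2 scale. On simulated data for 16026 genes with 200 changed, 95.5% of 2-fold changes were recovered for MPTP minus control (9 false of 165 calls).

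The members and lists were chosen with earlier results of these data known. Named are all members, list genes that passed or else had the widest range, and the 12 genes closest in profile. List genes at least 2-fold higher on hip replicate 2, the regulators, Lep, Retn and the relatives, and the glucocorticoid-responsive genes named, were picked after their values were seen. Alternatives were 3 scalings, 2 filters, eBayes without a trend, fewer groups, averaged probe sets, the replicate block and each array left out. The counts for the other gene lists under these alternatives were added after seeing the data. No batch was tested, since scan dates were not used here. Python 3.11.15 and matplotlib 3.10.9 made the plots.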

Additional observations from a re-analysis of the deposited data

How the results depend on the processing

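Of 9 members, 1 was called for MPTP minus control, and the count was 2 after a further quantile normalization or with each array centred on its median, 3 with only the 2 groups compared, 0 with cyclic loess, no filter or no intensity trend, and 0 to 2 with single arrays left out. Genes called there numbered 2696, with 4246 after centring and 69 to 4225 with single arrays left out. For acupoint minus MPTP, leaving out single arrays gave 0 to 3 genes. For acupoint minus control, 1 member was called after centring and 0 to 2 with single arrays left out, and the 1878 genes became 2872 after centring, 1023 with no trend, 135 with only the 2 groups compared, 1147 without both hip arrays and 249 to 3731 with single arrays left out. On hip replicate 2 the 5 members at least 2-fold above the MPTP mean became 2 with a filter at the 50th percentile, 8 at 1.5-fold and 3 at 4-fold, and the 5 apart between the hip arrays became 2 and 3 with that filter and at 4-fold. The median of all genes for MPTP minus control was 0.06, 0.10 after quantile normalization, 0.04 after cyclic loess and 0.22 after centring. The causes of these shifts were not tested.

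Signs turned only for differences that were not called. For MPTP minus control, quantile normalization gave 0.072 for Fabp4, 0.005 for Lpl and 0.172 for Plin1, cyclic loess 0.053 for Plin1, and centring 0.004 for Fabp4, 0.022 for Lpl, 0.12 for Plin1 and 0.064 for Dgat2. Ucp1 in acupoint minus MPTP was -0.026, -0.019 and -0.015 under the same 3 scalings. For acupoint minus control, Fabp4 was 0.079 after quantile normalization and 0.018 after centring, and Dgat2 0.064 after centring. With single arrays left out, MPTP minus control spanned -0.512 to 0.205 for Fabp4, -0.404 to 0.132 for Lpl, -0.254 to 0.178 for Plin1, -0.203 to 0.015 for Dgat2 and -0.085 to 0.369 for Ucp1. Acupoint minus MPTP spanned -0.32 to 0.397 for Fabp4, -0.401 to 0.275 for Lpl, -0.212 to 0.197 for Cidea, -0.116 to 0.316 for Plin1, -0.225 to 0.052 for Plin4, -0.078 to 0.129 for Dgat2, -0.19 to 0.21 for Ucp1 and -0.405 to 0.046 for Ucp3. Acupoint minus control spanned -0.379 to 0.148 for Fabp4, -0.537 to 0.139 for Lpl, -0.105 to 0.228 for Plin1, -0.178 to 0.04 for Dgat2 and -0.075 to 0.379 for Ucp1.

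The replicate numbers did not pair the arrays, with correlations of same-numbered deviations from -0.328 to 0.174. With the number as a replicate block, 1 member (Plin4, limma adjusted p = 0.0336) and 2210 genes were called for MPTP minus control. When a group keeps 1 array, that array is taken to vary like the other groups. In simulated data for MPTP minus control, with changed genes drawn at random, 38.8% of differences of 0.5 on the log2 scale were recovered with 2 arrays per group.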
